A study of Arabidopsis thaliana with 69 samples.

Results

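The mature miRNAs of wild-type Arabidopsis embryos were compared between the globular stage, before cotyledons are visible, and the early heart stage, when they begin to grow out. A miRNA was tested when its mean level reached at least 10 RPM (reads scaled to genome-matching reads, summed over reads of 20 to 24 bases) in either stage. This held for 57 of the 427 mature miRNA names in the files. Of these, 42 reached the minimum in both stages, 13 only through their early heart mean and 2 only through their globular mean. Of the remaining names, 163 had reads in at least 1 of the 6 libraries and 207 had none. The tested names held at least 99.2% of the miRNA level of every library. Just outside the minimum were miR156c-3p (8.99 RPM in early heart), miR398a-3p (8.91 RPM) and miR160b (7.93 RPM), and just inside were miR167c-3p (10.5 RPM) and the identical miR156a-5p and miR156c-5p (10.6 RPM).

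Each stage was represented by 3 small RNA sequencing (sRNA-seq) libraries. Each library came from a pool of embryos dissected from Col-0 plants, with different plants and days for the replicates, so a level is the mean over all cells of many embryos. In such pools, fewer cells that make a miRNA and less of it per cell cannot be told apart. No treatment or transgene was used in these groups, and the 3 dcl1-5 globular libraries mentioned beside them carry a mutation of DICER-LIKE1, the enzyme that releases most plant miRNAs from their precursors. A part of the RNA of the same pools was used for nanoPARE, which maps 5′ ends of RNA fragments and thereby the positions where miRNAs cut their targets.

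The early heart libraries were shallow. They held 1665909 to 2957949 genome-matching reads, against 16145301 to 52374395 in the globular libraries, so that the shallowest globular library was 5.46 times as deep as the deepest early heart library. A level of 3 reads corresponded to 1.01 to 1.80 RPM in early heart and to 0.0573 to 0.186 RPM in globular libraries. These limits cover counting error only, since PCR copies of a molecule were not told apart. The study tried a higher range of PCR cycles for globular than for early heart libraries. The cycles used for each library are not given in the sources used here, and their part in the results was not tested. Among miRNAs known from other tissues, miR172 (8 names) summed to between 0 and 1.67 RPM in globular and to 0 in all early heart libraries, against 66.9 RPM in a leaf and 50.5 RPM in a floral bud library. The 7 miR399 and 2 miR397 names were each at 0 in 5 of the 6 libraries. miR397 was also at 0 RPM in the leaf and 0.692 RPM in the floral bud library. There, 3 reads corresponded to 4.36 RPM (leaf) and 1.04 RPM (floral bud), so both values lay below that level. By contrast, miR398 summed to 86.0 to 432 RPM in globular and 270.1 to 859 RPM in early heart libraries. Its leaf and floral bud levels were 9528 and 60.2 RPM. miR408 summed to 103 to 719 RPM in globular and 191 to 821 RPM in early heart libraries, against 1049 and 153 RPM in leaf and floral bud.

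Plant miRNAs are cut by DICER-LIKE1 from hairpin precursors as a duplex, of which usually 1 arm, the guide, is kept by an ARGONAUTE protein and pairs with its target RNA almost along its whole length. ARGONAUTE then cuts the target, or blocks its translation. Many conserved plant miRNAs act on transcription factors of development. miR319 acts on TCP factors, miR165 and miR166 on HD-ZIP III factors of the upper leaf side and shoot meristem, miR164 on CUC factors of organ boundaries, miR156 on SPL factors of the phase of growth, and miR159 on GAMYB-like factors. miR390 works indirectly. With ARGONAUTE7 it directs the cutting of TAS3 RNA into small RNAs that repress AUXIN RESPONSE FACTOR genes.

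The sequences that carried the differences between the stages are given 5′ to 3′ as they stand in the TAIR10.1 annotation of RefSeq, with the seed (bases 2 to 8) in capitals. The first group rose or fell whether or not identical loci were merged.
miR319c: uUGGACUGaagggagcuccuu
miR390a-5p: aAGCUCAGgagggauagcgcc
miR831-3p: uGAUCUCUucguacucuucuug
The second group is shown because only 1 base sets most of its sequences apart from a close relative, so that their reads could be counted separately.
miR319a: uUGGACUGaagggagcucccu
miR156b-5p: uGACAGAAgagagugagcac
miR156g: cGACAGAAgagagugagcac
miR158a-3p: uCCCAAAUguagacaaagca
miR158b: cCCCAAAUguagacaaagca
miR165a-3p: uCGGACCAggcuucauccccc
miR166a-3p: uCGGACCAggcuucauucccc
miR164c-5p: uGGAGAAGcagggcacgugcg

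Counted from the 5′ end, miR319c differs from miR319a by C20U, miR156g from the miR156a-5p to miR156f-5p sequence by U1C, miR158b from miR158a-3p by U1C, and miR166a-3p from miR165a-3p by C17U. In none of these 4 pairs does the change lie in the seed. miR319a and miR319b are identical, as are miR390a-5p and miR390b-5p, miR165a-3p and miR165b, and the 7 names of the miR166a-3p sequence. In all, 24 of the 57 tested names share their sequence with another name, and the 57 names hold 43 distinct sequences. miR319c lies at chr2:17029870-17029890 on the plus strand (locus AT2G40805), miR390a-5p at chr2:16061971-16061991 on the plus strand (AT2G38325) and miR831-3p at chr2:10247390-10247411 on the plus strand (AT2G24103), each inside its annotated miRNA gene.

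Between the stages 3 of the 57 names changed at an adjusted p under 0.05 (5.26%), by limma on log2(RPM + 1) with Benjamini-Hochberg adjustment. miR319c and miR390a-5p were higher in early heart (3.51% of the names), and miR831-3p was lower (1.75%). An unadjusted p under 0.05 was reached by 14 names. The median change of all tested names was 0.45 on the log2 scale, early heart minus globular. In 17 names (29.8%) all early heart libraries lay above all globular libraries, and in 2 names (3.51%) all lay below. Part of this imbalance comes from the minimum, since 7 of the 17 had passed it only through their early heart mean and had to be higher. Among the 42 names above the minimum in both stages, 10 lay above and 2 below. The split of the calls depended on the scaling. With TMM factors over miRNAs in edgeR, which moved the median to -0.28, 1 name was higher and 5 were lower. With DESeq2 size factors, where the median was -0.03, 3 were higher and 3 lower. Scaling to the miRNA total gave 6 higher and 1 lower at a median of 0.29. edgeR with genome-matching library sizes called 1 lower name and none higher, with 10 higher names at an unadjusted p under 0.05. Without early heart library 2 no name was called, with 11 names at an unadjusted p under 0.05.

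**Figure D1:**
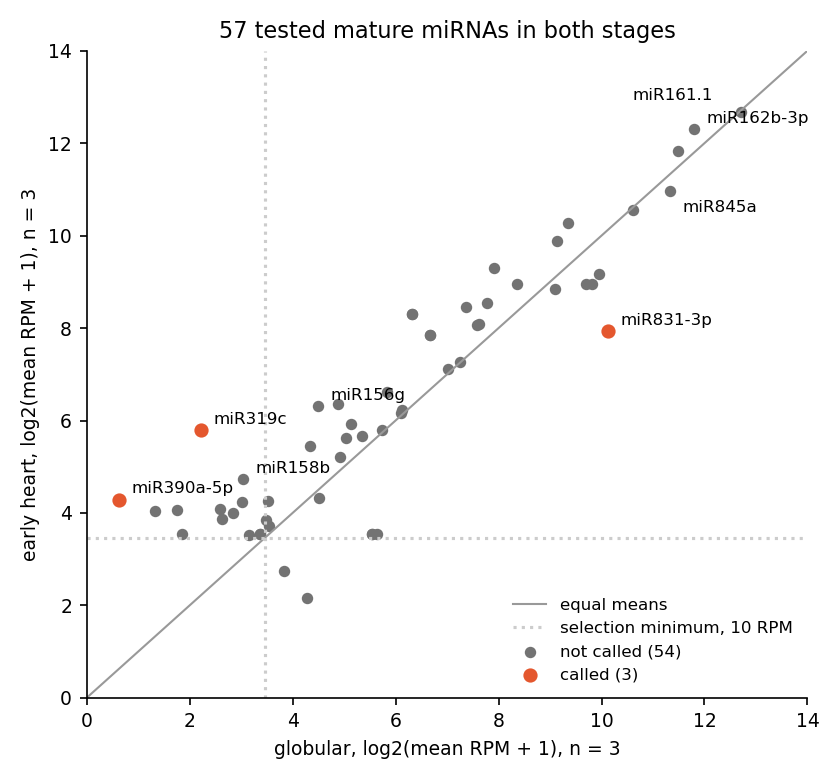
Mean level of each of the 57 tested mature miRNAs in globular (x axis) and early heart embryos (y axis), as log2(mean RPM + 1) over 3 libraries each, with the line of equal means and dotted lines at the minimum of 10 RPM. miR319c and miR390a-5p lie above the line and miR831-3p lies below it, with the other 54 in grey.

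miR319c, a repressor of TCP factors that limit cell division in growing leaves, was low in globular and clearly present in early heart embryos. Its level was 0.929, 6.03 and 3.97 RPM in the 3 globular libraries and 55.3, 44.4 and 63.6 RPM in the 3 early heart libraries. The groups did not overlap, and the lowest early heart library lay several-fold above the highest globular library. The means were 3.64 ± 2.57 and 54.4 ± 9.60 RPM (SD, n = 3), a ratio of 14.9. The change was 3.75 ± 0.57 (log2, SE) with an adjusted p of 0.012 (limma). These levels rest on 15, 105 and 208 reads in globular and 115, 74 and 188 reads in early heart libraries. Leaving out early heart library 1, 2 or 3 left the change at 3.73, 3.89 and 3.64, with adjusted p values of 0.114, 0.061 and 0.091 (limma), and edgeR with genome-matching library sizes gave 0.094. Since the minimum was passed only through the early heart mean, a name such as this had to be higher there.

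miR319a, the relative with nearly the same sequence, was not called. It measured 225, 167.5 and 264 RPM in globular and 599, 303 and 216 RPM in early heart libraries, so that the groups overlapped. The identical miR319b stood at 5.47, 6.40 and 3.28 RPM in globular and 31.5, 7.73 and 9.06 RPM in early heart libraries. The division of reads between miR319a and miR319b is an estimate, since no read can tell them apart, whereas base 20 tells both from miR319c in full-length reads. Of all miR319 reads, miR319c made up 0.401%, 3.35% and 1.46% in globular and 8.07%, 12.5% and 22.04% in early heart libraries. The groups did not overlap, and the two-sided exact permutation test gave p = 0.1, the smallest that 3 against 3 libraries allow.

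The length of the miR319c reads differed from the annotated 21 bases. In early heart libraries 76.5%, 79.7% and 87.8% of them were 22 bases long and 3.72% to 5.22% were 21 bases long. In the globular libraries 22-base reads made up 0% of 15, 68.6% of 105 and 43.8% of 208 reads. The miR319a reads were mostly 21 bases long, at 81.1% to 86.0% in globular and 74.7% to 82.8% in early heart libraries. Reads of 21 bases alone therefore left miR319c below the minimum.

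In neighbouring stages, miR319c measured 7.99, 0.833 and 3.90 RPM in preglobular and 373, 254 and 306 RPM in late heart embryos. It was at 0.278 to 1.56 RPM in dcl1-5 globular embryos. Early heart thus lay between the globular and late heart levels, without overlap with either. Relative to the miR319a sequence, miR319c stood at 0.403% to 3.47% in globular, 8.78% to 28.3% in early heart and 91.7% to 144% in late heart libraries.

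miR390a-5p, the guide that acts on TAS3, was at 0, 0.890 and 0.716 RPM in globular and at 17.3, 21.01 and 17.2 RPM in early heart libraries. The early heart libraries were at a similar level, and the groups did not overlap. The change was 3.72 ± 0.73 (log2, SE) with an adjusted p of 0.034 (limma). Early heart levels rest on 35 to 51 reads a library, and the globular levels on 0, 15.5 and 37.5 reads. As for miR319c, the minimum was passed only through the early heart mean, so the name had to be higher there. The authors' division of reads between the identical miR390a-5p and miR390b-5p was even in globular libraries 2 and 3, and gave all reads to miR390a-5p in every early heart library. Merged, the sequence measured 0, 1.78 and 1.43 RPM in globular and 17.3, 21.01 and 17.2 RPM in early heart libraries, a change of 3.36 ± 0.60 with an adjusted p of 0.0036 (limma). It was called without each library in turn when merged. Under its own name the call was lost in 8 of 21 alternatives. These were leaving out globular library 2 (adjusted p = 0.081, limma) or early heart library 1, 2 or 3 (0.156, 0.14 and 0.091), a pseudocount of 0.1 (0.069), the replicate number as a block (0.093), and edgeR with genome-matching library sizes (0.114) or TMM (0.128).

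The other arm of this precursor, miR390a-3p, was the more abundant arm at both stages and was not called. It measured 27.3, 55.8 and 85.2 RPM in globular and 82.7, 90.0 and 119 RPM in early heart libraries, with overlap. The 5p arm made up 0%, 1.57% and 0.833% of the reads of both arms in globular libraries and 17.3%, 18.9% and 12.7% in early heart libraries. These shares did not overlap (exact permutation p = 0.1, two-sided, the smallest possible). In preglobular libraries miR390a-5p had no read, which allows up to 0.292, 0.500 and 1.46 RPM. In late heart libraries it stood at 13.9, 16.4 and 26.4 RPM, a range that holds the early heart values. It was at 0.365, 0 and 0 RPM in dcl1-5 globular libraries.

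miR831-3p, for which no role is given here, was the only miRNA called lower. It measured 1153, 956 and 1263 RPM in globular and 251, 220 and 257 RPM in early heart libraries, a ratio of means of 0.216. Both groups were tight and lay far apart. The change was -2.20 ± 0.27 (log2, SE) with an adjusted p of 0.0067 (limma). It stayed negative under every alternative, between -3.06 and -2.11, and the call was lost only without early heart library 2 (-2.13, adjusted p = 0.057, limma). The reads were 22 bases long in 93.5% to 95.9% at both stages, and the 3p arm made up at least 99.48% of the reads of both arms in every library. miR831-3p was at 2201, 2908 and 3962 RPM in preglobular and 197, 390 and 283 RPM in late heart libraries. The early heart values lay inside the late heart range, while the globular values lay below the preglobular ones without overlap. In dcl1-5 globular embryos it was at 0.972 to 4.40 RPM.

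**Figure D2:**
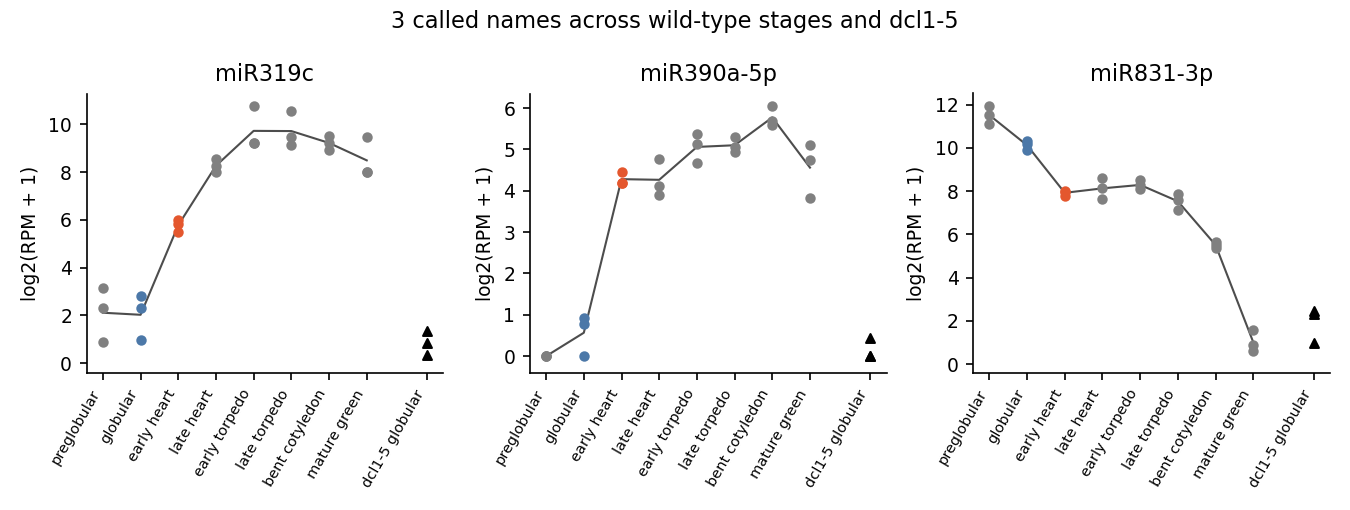
Levels of miR319c, miR390a-5p and miR831-3p as log2(RPM + 1) in every wild-type library of 8 stages (points, with a line through the means of 3 libraries; globular blue, early heart red) and in 3 dcl1-5 globular libraries (triangles). miR319c and miR390a-5p step up between globular and early heart, where miR831-3p steps down from 956 to 1263 RPM to 220 to 257 RPM.

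Identical sequences were then merged, because the authors' division of reads between identical loci moved from library to library. Among the names of the miR166a-3p sequence, miR166g held 20.3%, 0% and 43.5% of the reads in globular and 0%, 18.1% and 12.0% in early heart libraries. miR166e-3p and miR166f each held 20.4%, 29.2% and 1.66% in globular libraries. Values under a single name of such a group are therefore less certain than their sum. After merging, 8 of 45 tested sequences were called (17.8%), 7 higher (15.6%) and 1 lower (2.22%). All early heart libraries lay above all globular libraries in 12 sequences (26.7%) and below them in 2 (4.44%). The higher ones were miR319c, the miR390a-5p sequence, miR164c-5p, miR156g, miR158b, the miR166a-3p sequence and the miR165a-3p sequence, and the lower one was miR831-3p. edgeR on the merged counts called 6 higher (13.3%) and 1 lower (2.22%). Without globular library 1, or early heart library 2 or 3, the number of higher sequences was 3, 2 and 3.

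**Figure D3:**
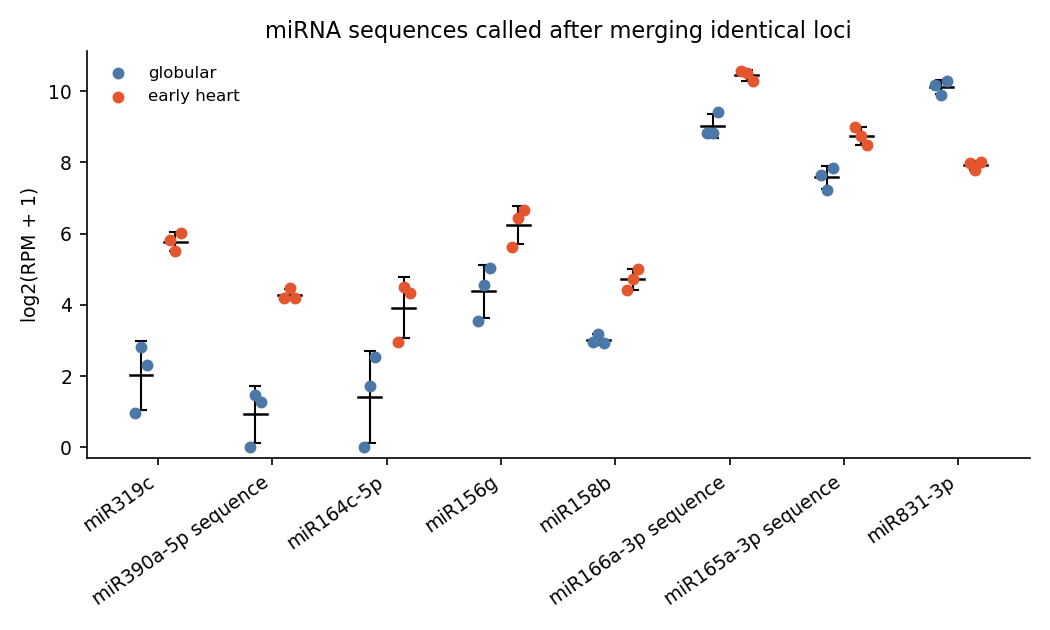
Level of each of the 8 called sequences in the 3 globular (blue) and 3 early heart libraries (red), as log2(RPM + 1), with the mean and SD of each stage in black. In all 8 the stages do not overlap, and only miR831-3p is lower in early heart.

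miR165 and miR166 share their seed and act on the HD-ZIP III genes PHB, PHV, REV and CNA. The miR166a-3p sequence, summed over 7 loci, measured 452, 452 and 678 RPM in globular and 1528, 1454 and 1246 RPM in early heart libraries. Every early heart library lay above every globular library. The change was 1.44 ± 0.32 (log2, SE), with an adjusted p of 0.015 (limma). It was not called without globular library 1 (adjusted p = 0.059, limma) or early heart library 2 (0.104). The miR165a-3p sequence, summed over 2 loci, measured 201, 150 and 229 RPM in globular and 506, 427 and 358 RPM in early heart libraries. Its change was 1.16 ± 0.33 with an adjusted p of 0.038 (limma), and it was called in only 1 of the 6 fits that left out a library, the one without globular library 3.

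The miR165a-3p sequence stood at 44.4%, 33.14% and 33.8% of the miR166a-3p sequence in globular and at 33.09%, 29.4% and 28.8% in early heart libraries. These shares were lower in early heart by a narrow gap (exact permutation p = 0.1, two-sided, the smallest possible). Both continued upward by their means, to 632 ± 79.9 RPM for miR165a-3p and 2212 ± 148 RPM for miR166a-3p in late heart libraries (SD, n = 3). Under their single names, miR166a-3p (1.45), miR165a-3p (1.48) and miR166c (2.85) were each at an adjusted p of 0.060 (limma), and were not called. The other arm, miR165a-5p, measured 534, 617 and 1349 RPM in globular and 353, 448 and 677 RPM in early heart libraries, and was not called. It lay above the summed miR165a-3p sequence in every globular library and in early heart libraries 2 and 3. By the mean of all 24 wild-type libraries it is the less abundant arm.

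miR164c-5p, a form of the regulator of CUC genes, rose from 0, 2.30 and 4.79 RPM in globular to 6.73, 21.5 and 19.1 RPM in early heart libraries, by 2.50 ± 0.76 (log2, SE; adjusted p = 0.048, limma on merged sequences). In the main test of names, where its values were the same, it was not called (SE 0.92, adjusted p = 0.167, limma). The gap between the stages was small next to the spread within early heart, and the minimum was passed only through the early heart mean. The call was lost in edgeR (adjusted p = 0.25) and without globular library 1 (0.091, limma), early heart library 2 (0.21) or early heart library 3 (0.207). Its other arm, miR164c-3p, overlapped between stages at 1.67, 1.90 and 11.9 RPM in globular against 9.62, 18.01 and 13.2 RPM in early heart libraries. miR164c-5p had no read in the preglobular libraries and measured 16.9 to 21.9 RPM in late heart libraries.

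miR156g and miR158b are both told from a far more abundant relative by the first base alone. miR156g rose from 10.7, 22.5 and 31.6 RPM in globular to 48.6, 85.9 and 100.4 RPM in early heart libraries, by 1.87 ± 0.48 (log2, SE; adjusted p = 0.023, limma on merged sequences). miR158b rose from 6.82, 8.11 and 6.58 RPM to 20.2, 25.2 and 31.4 RPM, by 1.69 ± 0.42 (adjusted p = 0.023). Neither overlapped between stages. miR158b passed the minimum only through its early heart mean. Under their names the adjusted p values were 0.060 and 0.052 (limma). The call of miR156g was lost without globular library 1 (adjusted p = 0.059, limma) or early heart library 2 (0.105) or 3 (0.112), and that of miR158b without early heart library 1 (0.058), 2 (0.114) or 3 (0.080).

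The share of each in its abundant relative also differed between stages. miR156g amounted to 0.638%, 0.820% and 0.683% of the miR156a-5p to miR156f-5p sequence in globular and to 2.08%, 2.29% and 2.00% in early heart libraries. It amounted to 0.347% to 0.452% in preglobular libraries, to 0.332% to 0.423% in all libraries from late heart onward, and to 2.26% to 5.18% in dcl1-5 globular libraries, where both were scarce. miR158b amounted to 1.32%, 1.36% and 0.780% of miR158a-3p in globular and to 1.68%, 2.01% and 2.46% in early heart libraries, against 1.81% to 2.41% in preglobular and 0.398% to 0.558% in later libraries. The shares in early heart thus stood above those of globular and of later libraries for both. The part that reads of the relative had in these 2 increases was not tested.

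In late heart libraries miR156g was back at 19.1 to 20.7 RPM and miR158b at 8.999 to 10.4 RPM, near their globular levels. The reads of miR156g were 20 bases long in 90.8% to 94.9% in all 6 libraries. Those of miR158b were 20 bases long in 74.6% to 85.8% in globular and 94.6% to 100% in early heart libraries.

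**Figure D4:**
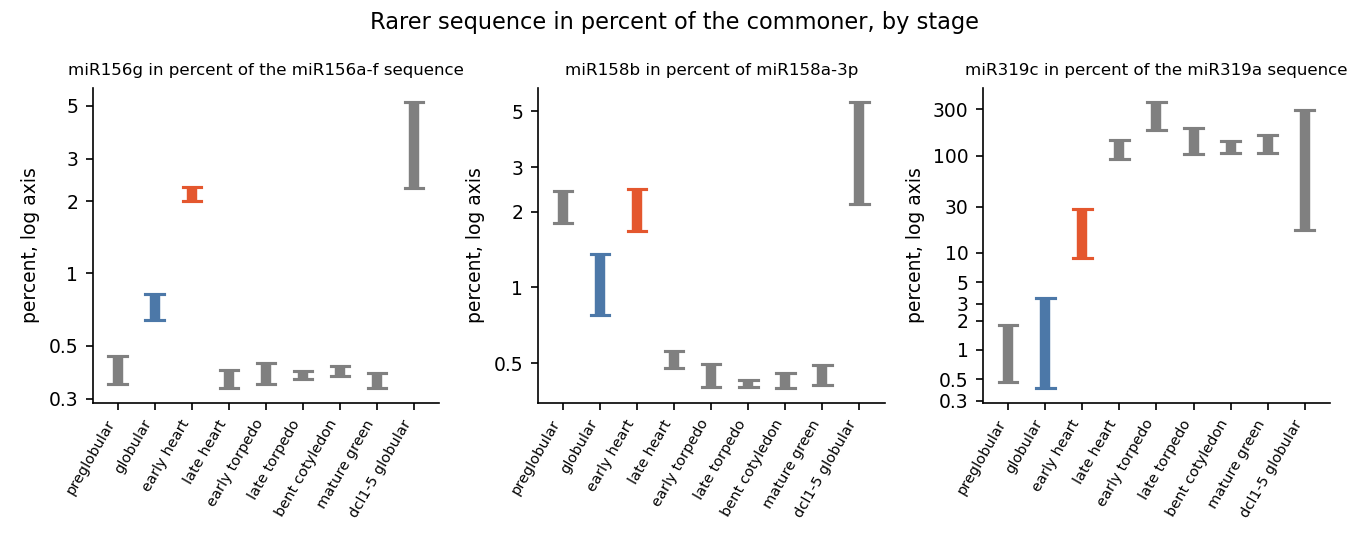
Range over 3 libraries of miR156g in percent of the miR156a-5p to miR156f-5p sequence (left), miR158b in percent of miR158a-3p (middle) and miR319c in percent of the miR319a sequence (right), by stage, on log axes. Globular is blue, early heart red and the rest grey. miR156g and miR158b stand higher in early heart than in the stages from late heart onward, whereas miR319c goes on rising to 91.7% to 144% in late heart.

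Of the most abundant miRNAs, only miR831-3p passed the main test. With TMM, miR161.1 (-0.81, adjusted p = 0.045, edgeR), miR845b (-1.52, 0.045) and miR156b-3p (-1.63, 0.045) were also called lower, the latter pair also with DESeq2 (adjusted p = 0.012 and 0.03). miR158a-3p was called higher in 4 alternatives and miR159a in 1. The 10 names of highest mean level were miR161.1, miR162b-3p, miR156b-5p, miR845a, miR173-3p, miR158a-3p, miR845b, miR159a, miR156b-3p and miR831-3p. miR161.1, the 1 tested name of the list of miRNAs that act on pentatricopeptide repeat genes, was the most abundant at 4743, 6200 and 9133 RPM in globular and 5275, 6725 and 7496 RPM in early heart libraries, with a change of -0.0047 ± 0.30 (log2, SE). miR162b-3p, which acts on DICER-LIKE1, measured 2402, 3192 and 5088 RPM in globular and 2574, 5235 and 7365 RPM in early heart libraries. miR156b-5p, which carried 91.7% to 100% of the reads of its sequence, measured 1542, 2531 and 4501 RPM in globular and 2341, 3754 and 4852 RPM in early heart libraries. In each of these 3 the groups overlapped, and globular library 3 held the highest globular value.

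miR158a-3p measured 515, 597 and 844 RPM in globular and 1201, 1255 and 1281 RPM in early heart libraries. The groups did not overlap, and its change of 0.96 ± 0.29 was at an adjusted p of 0.076 (limma). miR159a, the regulator of GAMYB-like genes, likewise did not overlap, with 394, 582 and 708 RPM against 1040, 926 and 851 RPM and a change of 0.78 ± 0.31 (adjusted p = 0.183, limma). miR173-3p, the partner of the arm that triggers TAS1 and TAS2 small RNAs, overlapped at 1350.2, 1089.5 and 2235 RPM against 1253, 1369.8 and 1865 RPM, and the 5p arm made up at most 0.0922% of the reads of both arms.

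**Figure D5:**
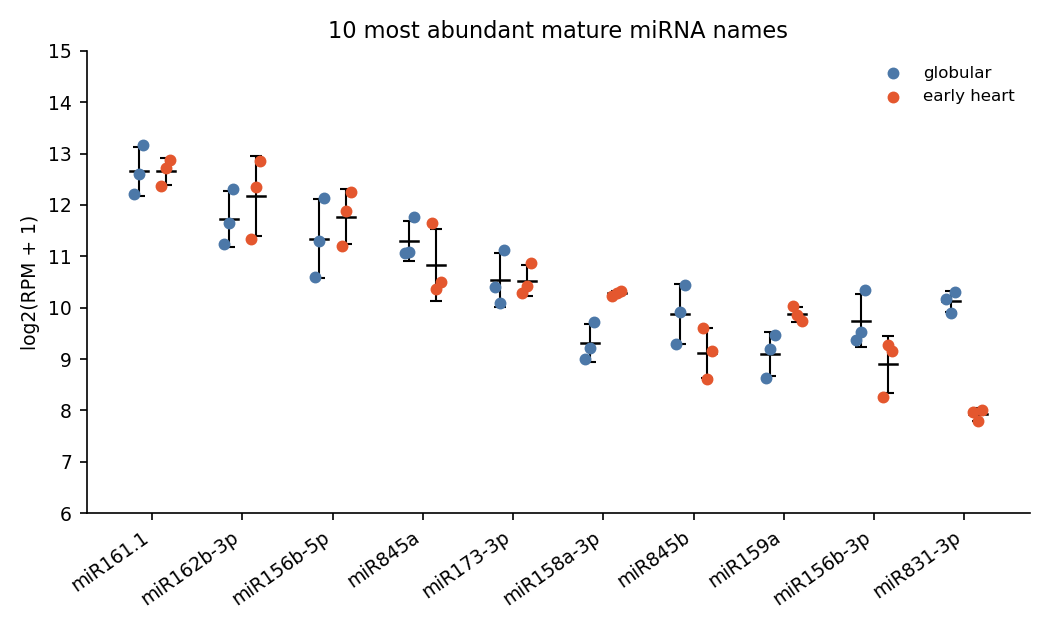
Levels of the 10 most abundant miRNA names in 3 globular (blue) and 3 early heart libraries (red), as log2(RPM + 1) on an axis that starts at 6, with the mean and SD in black. The stages overlap in miR161.1, miR162b-3p, miR156b-5p, miR845a, miR173-3p and miR845b, and miR831-3p stands apart.

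The tested miRNAs of those that the study itself named as early embryonic, from these same samples, had lower mean levels in early heart. Of them only miR831-3p passed the test. They were chosen on these libraries, which makes this no independent evidence. Of this list 5 names were tested, with 0 higher, 1 lower and a median change of -0.85, against 0.45 over all tested names. miR866-3p, which the study also named, was not among the tested names. miR156b-3p, the arm opposite the miR156 guide, measured 663, 739 and 1299 RPM in globular and 307, 618 and 568 RPM in early heart libraries, below without overlap, at an adjusted p of 0.267 (limma). miR845a, known in pollen for pairing with retrotransposon primer-binding sites, measured 2127, 2174 and 3458 RPM in globular and 3200, 1325 and 1445 RPM in early heart libraries. The early heart library 1 value lay inside the globular range and the other two below it. Its relative miR845b measured 625, 961 and 1397 RPM in globular and 773, 391 and 567 RPM in early heart libraries, with overlap. miR3440b-3p also overlapped, at 4.77, 14.6 and 20.4 RPM in globular and 4.33, 6.60 and 6.09 RPM in early heart libraries. In preglobular libraries it had stood at 194 to 323 RPM.

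Among the regulators of transcription factors, 30 names were tested, of which miR319c was higher (1 of 30, none lower, against 2 higher of all 57) at a median change of 0.62. After merging, 5 of 19 sequences were higher and none was lower, against 7 of all 45 (15.6%). The auxin list had 3 tested names, 1 of them called (miR390a-5p). The TAS trigger list had 3 tested names, miR390a-5p, miR390a-3p and miR173-3p, with the same call. These lists were drawn by family number. They therefore also count opposite arms, such as miR390a-3p and miR173-3p here and miR156b-3p among the 30 names. Of the small RNA pathway regulators miR162, miR168 and miR403, 5 names were tested and none was called, at a median of 0.45. miR168a-5p, which acts on ARGONAUTE1, measured 44.6, 63.6 and 97.3 RPM in globular and 67.8, 70.0 and 84.5 RPM in early heart libraries. Of its reads, 77.3% to 81.5% in globular and 61.0% to 77.1% in early heart libraries were 24 bases long. Reads of 21 bases made up 7.95% to 14.1% in globular and 12.6% to 22.7% in early heart libraries. miR403-3p, which acts on ARGONAUTE2, measured 148, 178 and 261 RPM against 222, 268 and 329 RPM. Both overlapped. Of the 11 tested miRNAs with numbers of 770 and above, most of them evolutionarily young, only miR831-3p was called (1 of 11, against 3 of all 57). Of the 11 tested less abundant arms of conserved families, 1 was higher (against 2 of all 57), miR390a-5p, which counts as such by its level here. After merging, miR390a-5p and miR164c-5p were higher, 2 of 10 sequences against 7 of 45. For miR164 the arms were nearly even over all 24 wild-type libraries, at 11.2 RPM (3p) and 10.9 RPM (5p). In early heart the mean of miR164c-5p was above that of miR164c-3p, at 15.8 against 13.6 RPM.

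The tested copper-responsive miRNAs overlapped between the stages. None of the 4 tested names of the nutrient list was called, at a median change of 1.03. miR398b-3p, which shares its sequence and reads evenly with miR398c-3p and represses copper/zinc superoxide dismutases, measured 42.7, 214 and 44.5 RPM in globular and 411, 148 and 131 RPM in early heart libraries. miR408-3p, which acts on transcripts of copper proteins such as plantacyanin, measured 82.7, 360 and 130 RPM in globular and 532, 151 and 112 RPM in early heart libraries. miR408-5p followed with 19.9, 359 and 77.4 RPM and 288, 94.2 and 79.1 RPM. In all of them globular library 2 and early heart library 1 stood above the other libraries of their stage. The other arms, miR398b-5p and miR398c-5p, stayed below the minimum and were not tested. Each was at 0 RPM in all globular libraries and at 8.42, 2.10 and 1.86 RPM in early heart libraries, without overlap. All miR398 names together ranged from 86.0 to 432 RPM in globular and from 270.1 to 859 RPM in early heart libraries, against 9528 RPM in the leaf and 60.2 RPM in the floral bud library.

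Other names differed in mean without passing the test. miR843 measured 1.30, 7.76 and 12.2 RPM in globular and 17.3, 15.6 and 20.6 RPM in early heart libraries, and miR846-5p 29.4, 26.4 and 46.1 RPM against 46.2, 56.4 and 77.4 RPM. miR159b-3p, a close relative of miR159a, measured 307, 352 and 322 RPM in globular and 527, 577 and 381 RPM in early heart libraries. In these 3 names the stages did not overlap, at adjusted p values of 0.265, 0.25 and 0.272 (limma). miR396b-5p, which acts on growth-regulating factors, measured 7.62, 46.5 and 1.32 RPM in globular and 4.33, 2.70 and 3.35 RPM in early heart libraries, and its lower early heart mean rested on globular library 2. The most negative change of all, that of miR156d-5p (-2.24 ± 2.15, log2, SE), came from 27.9, 0 and 118 RPM in globular and 0, 0 and 31.8 RPM in early heart libraries. It is a name whose reads are divided with miR156b-5p, and the merged sequence overlapped between the stages.

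The summed level of all miRNAs differed by less than the spread between libraries. It was 18665, 23459 and 35060 RPM in globular and 25033, 27421 and 31914 RPM in early heart libraries, a ratio of 1.09 (exact permutation p = 0.7, two-sided). The number of miRNA names detected was compared at equal depth. At the depth of the shallowest library, 98.1, 110.8 and 113.6 names would be detected in globular and 129.1, 127.0 and 131.0 in early heart libraries, without overlap (ratio 1.201, exact permutation p = 0.1, the smallest possible). At least 3 reads in place of 1 gave a ratio of 1.11. The share of 21-base reads was 68.9%, 68.0% and 67.6% in globular and 71.7%, 68.9% and 69.0% in early heart libraries. The stages were separated by 68.883% against 68.895%. The difference of 1.72 percentage points had an exact permutation p of 0.1, the smallest possible, and was 0.80 points without early heart library 1.

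Cleavage was compared in the nanoPARE libraries, at predicted target sites with an adjusted p under 0.05, as deposited, in at least 2 replicates of either stage. There were 45 such sites, all of which met this in early heart and 22 of which also met it in globular. SPL13A and SPL13B had the same level as each other in all 6 libraries, as had RFL9 and RPF3. The 45 sites are therefore not all separate observations. Of the 45, 16 (35.6%) had all early heart levels above all globular levels and 0 (0%) the reverse. As 23 sites entered through early heart alone, 9 of the 16 among them, this imbalance is in part set by the choice of sites. Of the 22 sites that met it in both stages, 7 were higher without overlap. Single early heart libraries had more significant sites, at 42 to 50 against 20 to 32 in globular libraries, whereas the sites listed at any level overlapped, at 264 to 299 against 185 to 330. The depth of these libraries is unknown. Over the 6 sites compared, 1 for each family with a named guide, no difference passed the test. The adjusted p was 0.3 to 0.9 by exact permutation with Benjamini-Hochberg adjustment, where 3 against 3 libraries cannot go below 0.1 unadjusted. The miR159 site, in ATPD, measured 1.41, 1.25 and 1.33 RPM in globular and 4.06, 3.82 and 4.68 RPM in early heart libraries. Its stages did not overlap (exact permutation p = 0.1, 0.3 adjusted). The miR161 site, in EMB2654, overlapped at 0, 0.0814 and 0.778 RPM against 2.51, 0.510 and 1.39 RPM (0.4 adjusted). The guide listed for this site is miR161.2, not the abundant miR161.1. miR161.2 was not tested, at 0.991, 1.21 and 0 RPM in globular and 2.40, 0 and 0 RPM in early heart libraries.

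For miR390 the site was that of TAS3C, a gene of the TAS3 group. Its cleavage level was 0.645, 2.93 and 3.50 RPM in globular and 9.74, 4.77 and 6.998 RPM in early heart libraries. The stages did not overlap, and the exact permutation p was 0.1 (0.3 adjusted). The site is given 5′ to 3′ as DNA, with the bases that miR390a-5p leaves unpaired in capitals, because the deposited cleavage position at base 428 of the transcript lies opposite base 11 of this guide.
TAS3C: gTtTctattcctcctgagctt
It lies at chr5:23394422-23394442 on the plus strand (TAIR10.1), in an exon of a non-coding RNA. At TAS3A the level overlapped, with 0.780, 1.82 and 0.642 RPM in globular and 1.25, 1.55 and 1.43 RPM in early heart libraries. A site assigned to the other arm, miR390a-3p, in AT1G08125 measured 0.632, 2.84 and 1.499 RPM in globular and 4.17, 3.52 and 3.67 RPM in early heart libraries.

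For miR319 the site was in TCP24, a TCP factor of leaf growth. Its level was 1.05, 0 and 0 RPM in globular and 1.199, 0.325 and 0.970 RPM in early heart libraries, with overlap (adjusted p = 0.45, exact permutation). The best match of miR319 in the annotated gene is shown because base 20 of the guide, which sets miR319c apart, falls within it. Capitals mark the bases left unpaired by miR319a.
TCP24: TAggggGAcccttcagtccaa
This match lies at chr1:10628989-10629009 on the minus strand (TAIR10.1), in the coding sequence. miR319a leaves 4 bases unpaired there and miR319c leaves 3, since base 20 pairs in miR319c. Counted along the annotated transcripts, the deposited cleavage position at base 1022 lay outside this match. The stretch shown is therefore a match of letters and no measured cleavage position.

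For the miR165 and miR166 target PHB, cleavage measured 1.87, 1.92 and 0.482 RPM in globular and 7.95, 7.53 and 2.96 RPM in early heart libraries, without overlap. PHV, REV and CNA overlapped between the stages. REV, for example, measured 2.34, 0.722 and 0.160 RPM in globular and 1.77, 1.41 and 0 RPM in early heart libraries. The miR164 targets CUC1 and ANAC098 (CUC2) lay higher without overlap. Of these, CUC1 was significant in only 1 globular replicate and entered the sites through early heart alone. CUC1 measured 0, 0.258 and 0 RPM in globular and 2.13, 0.988 and 1.47 RPM in early heart libraries. Of the 8 miR156 sites, 4 were higher in early heart without overlap, against 16 of all 45 sites (35.6%), and 4 overlapped. Each of the 4 higher miR156 sites was significant in fewer than 2 globular replicates. SPL13A and SPL13B, both among the higher sites, had identical levels in every library and do not count as separate observations. SPL2 overlapped with 2.95, 1.05 and 0 RPM in globular and 1.45, 0.789 and 1.35 RPM in early heart libraries. The miR173 site in TAS1C overlapped at 33.0, 22.5 and 15.5 RPM against 28.0, 22.5 and 46.6 RPM. PHB, CUC1 and the other sites outside the 6 compared are described and were chosen after their values were seen.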

How the data were processed

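Levels of mature miRNAs were taken from the deposited sRNA-seq tables of 3 globular and 3 early heart wild-type pools. Per the study's methods, the authors selected RNA of 18 to 30 bases on a gel, trimmed reads with Cutadapt, aligned them to TAIR10 with STAR without mismatches, divided reads with several matches between loci by a rich-get-richer rule, and assigned them to mature miRNAs of miRBase at an overlap of at least 80% on the same strand with BEDtools. Tool versions are not given in the sources used here. The authors deposited an expected count and the RPM, normalized to genome-matching reads, for each read length. This scaling makes a miRNA level relative to all small RNAs of the library. The nanoPARE tables come from EndCut, run by the authors after removal of capped ends, and as deposited hold the RPM at each predicted site, an Allen score of pairing and an adjusted p-value. Sites absent from a library's table were set to 0 RPM.

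Names whose mean reached 10 RPM in either stage were fitted by limma 3.58.1 with an intensity trend (R 4.3.3) on log2(RPM + 1), without a replicate block, and adjusted by Benjamini-Hochberg over all tested names at 0.05. Fold changes on this scale understate those of low miRNAs. Identical sequences were summed in an alternative fit. RPM rather than counts was the unit set for the main test, and edgeR 4.0.16 and DESeq2 1.42.0 were run on rounded expected counts as alternatives. Other alternatives were the pseudocount, the minimum, the scaling, thinning, read length, families, all 24 wild-type libraries, the replicate block and leaving out each library. edgeR and the block on merged sequences, and leaving out libraries for merged sequences, miR319c shares and cleavage, were chosen after seeing the data. Totals and shares were tested by exact permutation, two-sided. The fits were tested on simulated data.

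The members, lists and tests were chosen with earlier results of these data known. Named were the called miRNAs whose stages did not overlap, up to 10 in each direction, and the 10 most abundant names, with members of fixed lists that were called. Others described, and all loci of merged sequences, were chosen after their values were seen. Replicates come from different plants and days, and their numbers do not pair the libraries. Sequences were read at the coordinates of the TAIR10.1 annotation of RefSeq, where all 427 names matched. Python 3.11.15, numpy 2.4.6, pandas 2.3.3, scipy 1.17.1 and matplotlib 3.10.9 were used.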

Additional observations from a re-analysis of the deposited data

Results flagged for a closer look

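Reads of 25 to 30 bases, which entered no comparison, were also assigned to mature miRNAs. Their summed level was 4.81, 5.70 and 6.93 RPM in early heart and 5.70, 11.5 and 7.40 RPM in globular libraries, above the 0.933 to 1.72 RPM of the dcl1-5 globular libraries. The early heart values rest on 10, 9.5 and 20.5 reads.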

How the results depend on the processing

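The number of names called moved with the setting. Against 2 higher and 1 lower, higher names numbered 1 with a pseudocount of 0.1, 9 with 10 RPM in all 3 libraries of a stage (42 tested), 0 in edgeR with genome-matching library sizes, 1 with TMM, 6 with scaling to miRNA reads, 4 without the intensity trend, 12 in the fit of all 24 wild-type libraries and 7 with identical sequences merged. Lower names numbered 5 with TMM and 3 with DESeq2. Leaving out a library gave 0 to 4 higher and 0 to 1 lower names, and 2 to 9 higher merged sequences. The cause was not tested.

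The direction of miR319c, miR390a-5p and miR831-3p held under every alternative in which they were tested. Reads of 21 bases left miR319c untested. Among miRNAs that were not called, the log2 change turned negative with TMM for miR162b-3p (-0.28), miR156b-5p (-0.38), miR159a (-0.013), miR408-3p (-0.20), miR408-5p (-0.60), miR319a (-0.040), miR159b-3p (-0.21), miR403-3p (-0.31) and miR168a-5p (-0.64). It did so with DESeq2 for miR156b-5p (-0.10), miR408-3p (-0.11), miR408-5p (-0.54), miR403-3p (-0.026) and miR168a-5p (-0.37). These settings lowered the median of all names as well. Leaving out a library gave -0.23 to 0.25 for miR161.1, -0.24 to 0.28 for miR173-3p, -0.27 to 1.00 for miR408-3p, -0.37 to 1.69 for miR408-5p and -0.092 to 0.46 for miR168a-5p. It gave a ratio of 0.961 to 1.34 for the total level and a difference of -0.807 to 0.669 RPM for cleavage of SPL2.

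With the replicate number as a block, 2 names were higher and 1 was lower, of which 2 were shared with the main calls, and 6 merged sequences were higher and 1 was lower. The numbers mark no shared day, and not every pair of same-numbered libraries deviated together (r = -0.43, -0.21 and -0.18 over names, and 0.02, -0.10 and 0.40 over merged sequences), so the block is no paired design.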
